A study of Mus musculus with 6 samples.

Results

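Of the 59927 peaks in the H3K4me3 list of mouse E14 embryonic stem cells, 14524 lay inside protein-coding genes but far from any start of transcription, and they are described here as distal gene-body peaks. A peak belonged to them when it was on chr1 to chr19, was shorter than 5000 bp, had its midpoint inside the body of a protein-coding gene, and had that midpoint more than 5000 bp from every annotated transcript start site, whatever the type of gene (mm10, GENCODE vM21). They made up 24.2% of the list (95% Wilson interval 23.9% to 24.6%), 46.6% of the 31163 peaks of this length far from start sites, and 13.1% of the tags in peaks. The peaks came from CUT&RUN, an assay in which a nuclease tethered to an antibody cuts out the chromatin that the antibody binds, for sequencing. H3K4me3 was mapped with an anti-H3K4me3 antibody in HA-ASH2L E14 cells, which the labels call an HA-Ash2L knock-in and which were grown with doxycycline for 48 h. By the methods, this line was made with a piggyBac vector and an rTTA element and was picked as a single colony, so that it expresses tagged ASH2L from added copies beside the cell's own gene, and both antibodies were used in this 1 line. ASH2L was mapped with anti-HA in the same line, and anti-HA was also used in the wild-type parental E14 cells, which were also cultured with doxycycline and whose signal was not analysed here. Each of the 3 conditions had 2 biological duplicates. For the HA-ASH2L line, the authors pooled the duplicates of each antibody ahead of peak calling. Every peak therefore carries 1 value for both samples together, the spread between samples could not be computed, and no test between conditions was possible. Peaks were compared with 16639 intergenic peaks that met the same limits on length and distance outside protein-coding genes, and with 16532 start-site peaks, which were shorter than 5000 bp and had their midpoint within 1000 bp of a start site. Peaks are not replicates, so medians and shares are given with 95% binomial or Wilson intervals that cover counting error only.

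H3K4me3 is the trimethylated form of lysine 4 of histone H3 and is best known as the mark of nucleosomes at start sites, above all those in CpG islands. It is written by the MLL/SET1 family of methyltransferases, in which ASH2L is a shared core subunit. Gene bodies can also hold enhancers, unannotated start sites and repeated DNA that carry some of the mark, and a peak list by itself does not tell these apart.

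The sequences at the summits show how different the peaks with the strongest statistics were from each other. Each sequence is the summit base with 100 bp on either side on GRCm38 (mm10), 5′ to 3′, with every CG dinucleotide in capitals. Windows that touched an exon, and those of 1 chromosome, are not printed, so that each set ranks the remaining windows only. The first set holds the 3 with the highest p-value score, which is the caller's −log10 p multiplied by 10.
Gm17655 (chr5:110057935-110058135, plus strand): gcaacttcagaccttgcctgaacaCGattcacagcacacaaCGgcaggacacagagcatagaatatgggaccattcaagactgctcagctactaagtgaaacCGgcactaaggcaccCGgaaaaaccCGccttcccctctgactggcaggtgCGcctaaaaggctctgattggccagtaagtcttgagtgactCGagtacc
Arid1b (chr17:5189723-5189923, plus strand): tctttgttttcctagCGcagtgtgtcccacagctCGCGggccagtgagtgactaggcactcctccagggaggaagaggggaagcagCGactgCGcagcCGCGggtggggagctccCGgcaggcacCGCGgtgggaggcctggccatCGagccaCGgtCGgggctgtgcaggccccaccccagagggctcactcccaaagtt
Fam13c (chr10:70520359-70520559, plus strand): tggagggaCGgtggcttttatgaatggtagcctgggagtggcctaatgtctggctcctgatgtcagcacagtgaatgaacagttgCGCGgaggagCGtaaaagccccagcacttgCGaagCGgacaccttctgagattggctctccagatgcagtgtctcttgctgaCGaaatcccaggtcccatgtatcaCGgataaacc

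The Gm17655, Arid1b and Fam13c windows held 7, 13 and 8 CG dinucleotides, with a GC content of 52.7%, 67.7% and 53.7%. The next set holds the 3 of these windows with the highest fold enrichment, the number of tags at the summit divided by the local background that the caller estimated in this library. The Lars2 window, which had the highest of all, lay on an exon and is not among them.
Camk1d (chr2:5379206-5379406, plus strand): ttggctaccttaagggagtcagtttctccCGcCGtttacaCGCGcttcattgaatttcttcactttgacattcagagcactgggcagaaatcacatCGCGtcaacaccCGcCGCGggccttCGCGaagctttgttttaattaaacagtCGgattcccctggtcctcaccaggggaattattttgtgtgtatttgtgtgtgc
9030025P20Rik (chr17:14990140-14990340, plus strand): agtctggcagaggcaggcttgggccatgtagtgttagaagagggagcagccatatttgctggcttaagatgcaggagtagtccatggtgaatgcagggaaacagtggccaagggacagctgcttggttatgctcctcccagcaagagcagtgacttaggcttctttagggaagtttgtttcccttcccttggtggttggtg
Lepr (chr4:101804130-101804330, plus strand): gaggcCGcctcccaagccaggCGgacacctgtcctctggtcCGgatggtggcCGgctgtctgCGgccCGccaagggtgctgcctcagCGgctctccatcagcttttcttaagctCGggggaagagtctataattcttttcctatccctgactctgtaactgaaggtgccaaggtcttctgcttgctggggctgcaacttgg

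These 3 windows ranged from no CG dinucleotide in 9030025P20Rik, which had 52.2% GC, to 12 in Camk1d, which had 48.8% GC. The third set holds the highest-scoring of the windows that could be shown and were CpG-island-like, the high-scoring ones of Prrt4, Nrg2 and Klhl31 being among those left out. CpG-island-like means here a GC content of at least 50% with an observed to expected CpG ratio of at least 0.6.
Acnat1 (chr4:49466781-49466981, plus strand): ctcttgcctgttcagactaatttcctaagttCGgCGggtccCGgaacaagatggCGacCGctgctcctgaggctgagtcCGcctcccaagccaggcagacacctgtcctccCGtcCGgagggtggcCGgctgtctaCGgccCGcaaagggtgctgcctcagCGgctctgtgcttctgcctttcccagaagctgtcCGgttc
Pdxdc1 (chr16:13868202-13868402, plus strand): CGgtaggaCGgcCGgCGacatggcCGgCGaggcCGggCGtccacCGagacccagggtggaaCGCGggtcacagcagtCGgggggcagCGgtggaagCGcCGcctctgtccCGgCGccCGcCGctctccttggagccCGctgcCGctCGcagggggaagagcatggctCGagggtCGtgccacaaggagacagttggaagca
Antxr2 (chr5:97935488-97935688, plus strand): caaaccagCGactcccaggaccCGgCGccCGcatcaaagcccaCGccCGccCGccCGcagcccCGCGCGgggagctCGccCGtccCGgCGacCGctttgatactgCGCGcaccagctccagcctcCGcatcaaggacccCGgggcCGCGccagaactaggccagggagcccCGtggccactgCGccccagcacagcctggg

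The Pdxdc1 and Antxr2 windows each held 24 CG dinucleotides and no soft-masked base, soft-masking being the lower case by which the RefSeq genome marks repeats and low-complexity sequence. The Acnat1 window was 89.1% soft-masked and held 13 CG dinucleotides. The fourth set adds the windows of the peaks whose overlapping ASH2L peak had the highest fold enrichment, the Camk1d window among them being given above and the Lars2 window left out.
Cmss1/Filip1l (chr16:57391432-57391632, plus strand): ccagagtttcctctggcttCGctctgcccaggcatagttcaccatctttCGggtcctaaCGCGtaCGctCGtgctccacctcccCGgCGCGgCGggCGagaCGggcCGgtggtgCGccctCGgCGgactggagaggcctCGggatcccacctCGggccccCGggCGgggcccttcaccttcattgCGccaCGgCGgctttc
Fbxw4 (chr19:45650068-45650268, plus strand): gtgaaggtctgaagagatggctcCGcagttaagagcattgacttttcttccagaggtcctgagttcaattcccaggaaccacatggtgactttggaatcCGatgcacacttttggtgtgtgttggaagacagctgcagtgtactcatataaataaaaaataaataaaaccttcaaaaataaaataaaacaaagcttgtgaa

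The Cmss1/Filip1l window had 23 CG dinucleotides and an observed to expected ratio of 0.938, whereas the Fbxw4 window had 2 and was 86.1% soft-masked. The last sets come from 2 groups of near-identical windows that recurred across the genome and are described with the repeats. The leading window of the first group and the next 2 by fold enrichment, turned to the same orientation, were as follows.
Immp2l (chr12:41379232-41379432, plus strand): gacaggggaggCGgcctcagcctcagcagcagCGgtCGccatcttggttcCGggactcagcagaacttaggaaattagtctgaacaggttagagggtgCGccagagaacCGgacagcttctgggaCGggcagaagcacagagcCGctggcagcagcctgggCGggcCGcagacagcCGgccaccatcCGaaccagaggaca
Fam135a (chr1:24075966-24076166, minus strand): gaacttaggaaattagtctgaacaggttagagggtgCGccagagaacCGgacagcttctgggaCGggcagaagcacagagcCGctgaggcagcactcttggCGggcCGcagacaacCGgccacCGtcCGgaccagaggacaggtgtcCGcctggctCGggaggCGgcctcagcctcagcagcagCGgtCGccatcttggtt
4932414N04Rik (chr2:68698427-68698627, plus strand): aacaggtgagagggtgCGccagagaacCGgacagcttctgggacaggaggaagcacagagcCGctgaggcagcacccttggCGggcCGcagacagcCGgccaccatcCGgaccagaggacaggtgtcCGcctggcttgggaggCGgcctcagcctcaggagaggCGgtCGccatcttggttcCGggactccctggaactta

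Over the aligned parts, the Fam135a window was 94.3% identical to the Immp2l window across 141 bp, and the 4932414N04Rik window was 92.6% identical across 121 bp. The second group is shown in the same way.
Abca13 (chr11:9364814-9365014, plus strand): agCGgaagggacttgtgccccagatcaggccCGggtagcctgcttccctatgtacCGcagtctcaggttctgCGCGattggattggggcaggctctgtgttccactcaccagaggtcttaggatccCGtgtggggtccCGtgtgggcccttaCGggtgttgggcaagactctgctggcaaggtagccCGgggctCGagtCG
Cnot6l (chr5:96119801-96120001, minus strand): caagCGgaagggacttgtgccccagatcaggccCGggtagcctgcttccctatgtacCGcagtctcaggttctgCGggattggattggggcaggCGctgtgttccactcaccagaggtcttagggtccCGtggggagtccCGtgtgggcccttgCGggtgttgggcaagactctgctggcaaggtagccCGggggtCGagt
Gm45861 (chr8:27561176-27561376, minus strand): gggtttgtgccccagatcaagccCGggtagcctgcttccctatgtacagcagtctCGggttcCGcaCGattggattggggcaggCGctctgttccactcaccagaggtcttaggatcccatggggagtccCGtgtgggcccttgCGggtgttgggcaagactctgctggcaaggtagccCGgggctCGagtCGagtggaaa

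Here the Cnot6l window was 96.5% identical to the Abca13 window across 199 bp, and the Gm45861 window was 94.2% identical across 189 bp. The Abca13 and Immp2l windows shared no run of letters longer than 9 bp on either strand. The Acnat1 window, which belonged to the first group, shared an unbroken run of 26 bp with the Immp2l window, and the Lepr window, which fell short of the alignment limit and was in no group, shared one of 30 bp.

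The library behind the list held 27328071 tags after redundant tags were removed from 39669806, and peaks were called without a control library at a p of 1e-05. The list was checked against marker genes of the labelled cell type. H3K4me3 was within 1000 bp of a start site for 4 of 8 embryonic stem cell markers (Esrrb, Zfp42, Tfcp2l1 and Klf4), whereas Pou5f1, Nanog, Sox2 and Dppa5a had no listed peak there. All 3 neural, all 4 mesoderm and endoderm and both trophoblast markers had one, as did 1 of 3 blood markers. Over all 20807 protein-coding genes on these chromosomes, 70.7% had such a peak. A start site without a peak in the list is therefore not a start site shown to lack the mark, and this limit touches every comparison below that sorts host genes by it.

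The distal gene-body peaks were shorter and held fewer tags than start-site peaks and were close to intergenic peaks. Their median length was 1200 bp, against 1127 bp for intergenic and 2342 bp for start-site peaks. They held a median of 78 tags (interval 77 to 80), with quartiles of 44 and 142, from 19 to 882. Intergenic peaks held a median of 72 tags (71 to 74) and start-site peaks 328 (322 to 334). Per 1000 bp of peak, the medians were 63.5 tags in gene bodies, 63.3 in intergenic sequence and 135 at start sites. Fold enrichment had medians of 6.34 (6.28 to 6.41), 6.84 (6.80 to 6.84) and 6.74 (6.69 to 6.79) in the same order. The gene-body class had the lowest median, with an interval that overlapped neither of the others, and quartiles of 5.13 and 7.98.

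**Figure D1:**
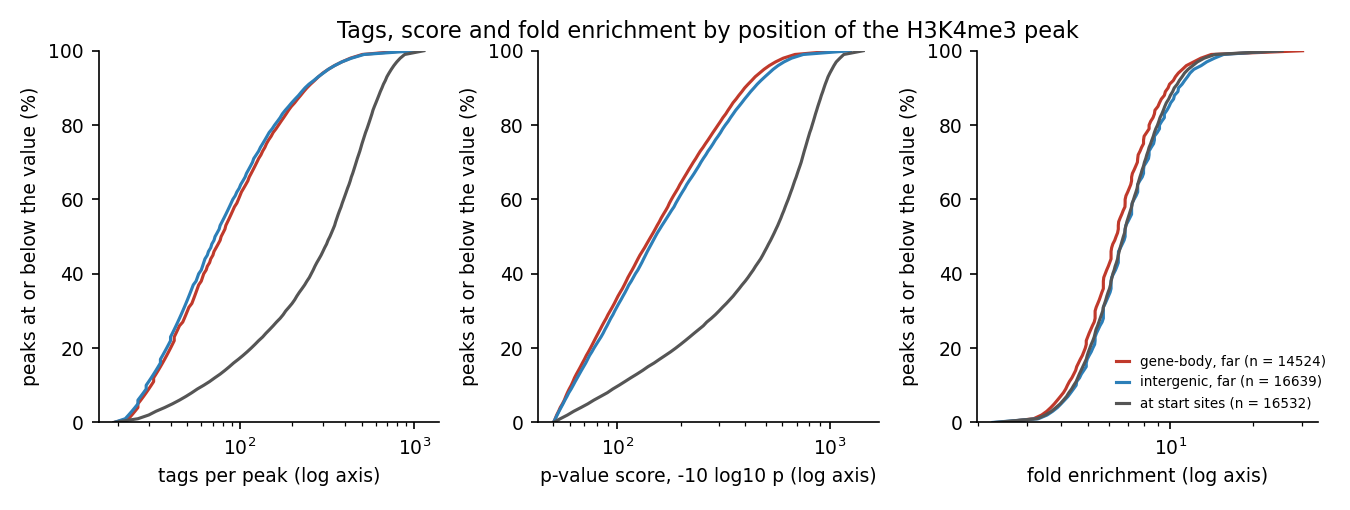
Cumulative distributions of tags per peak, p-value score and fold enrichment (log axes) for distal gene-body, intergenic and start-site H3K4me3 peaks, with the share of peaks at or below each value on the y axis. The gene-body and intergenic curves run close together for tags and score, with median scores of 144 and 151 against 538 at start sites, while the 3 curves for fold enrichment nearly coincide.

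The median score was 144 in gene bodies, 151 in intergenic sequence and 538 at start sites. When the whole list was cut by score into 10 equal parts, distal gene-body peaks made up 33.3% of the lowest part and 30.4% of part 5, but 10.1% of part 9 and 2% of the highest part. Start-site peaks went from 10% of the lowest part to 89.9% of the highest. Even so, 9639 distal gene-body peaks (66.4%) had a score of at least 100, and 1386 (9.54%) were under 60, close to the cutoff of 50.

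**Figure D2:**
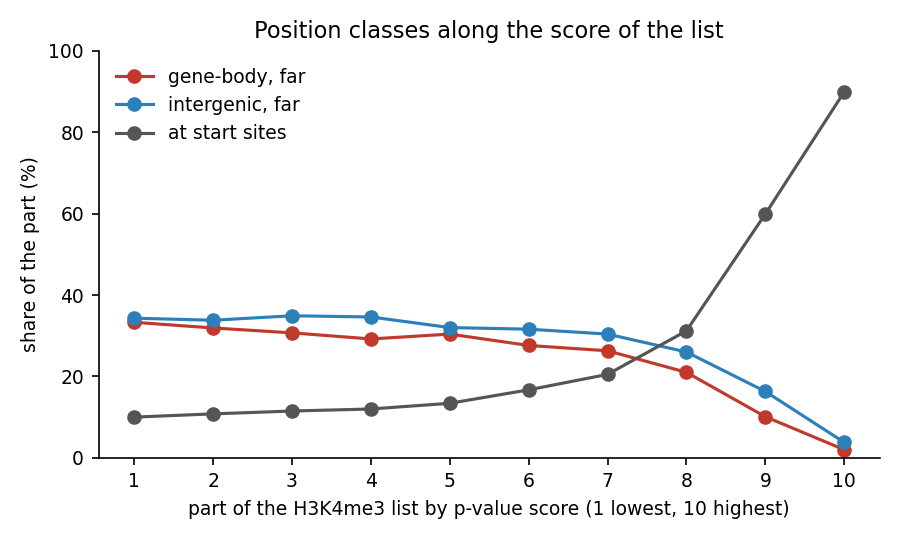
Share of each of 10 equal parts of the H3K4me3 list, ordered by p-value score, that was distal gene-body, intergenic or start-site peaks. The gene-body share falls from 33.3% in the lowest part to 2% in the highest, where start-site peaks make up 89.9%.

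Most, but not all, of these peaks were intronic. The midpoint was in an intron for 12668 of 14524 peaks (87.2%, 86.7% to 87.8%) and in an exon of a protein-coding gene for 1856 (12.8%), of which 1144 were in coding sequence. Introns made up 94.7% of the gene-body sequence more than 5000 bp from every start site, so that introns held 20 peaks per Mb, exons 52.2 per Mb and coding sequence 84.8 per Mb. Peaks in coding sequence had a median of 97 tags (91 to 105), against 76 (75 to 78) in introns, and their summit windows had a median GC of 59.2% against 52.2%. Of the coding-sequence peaks, 30.9% (28.2% to 33.6%) were CpG-island-like, against 5.65% (5.26% to 6.07%) of the intronic ones. The part of this base composition in the higher density was not tested. First introns of the longest coding transcript held 25.5 peaks per Mb and other introns 18.3 per Mb, with medians of 85 and 72 tags and median fold enrichments of 5.99 and 6.46. Along the host from its 5′ end, 4 equal parts held 21.2%, 25.5%, 24.8% and 28.6% of the 14189 peaks with a single host, and the distance limit itself removes sequence near the start from the first of them. Median tags were between 76 and 79 in all 4.

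The peaks thinned out with distance from start sites. From 5000 to 7500 bp there were 29.9 per Mb of gene body, from 20000 to 50000 bp 19.4 per Mb, and beyond 100000 bp 6.68 per Mb. Median tags were 86, 74 and 54 in the same 3 bins, while the median fold enrichment went the other way, from 6.08 through 6.52 to 7.22. Peaks of the 2 large repeat groups made up 0.978%, 4.06% and 11.1% of the 3 bins. Median GC fell with distance as well, from 53.2% to 50.2%, and the parts of base composition and repeats in these changes were not tested.

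**Figure D3:**
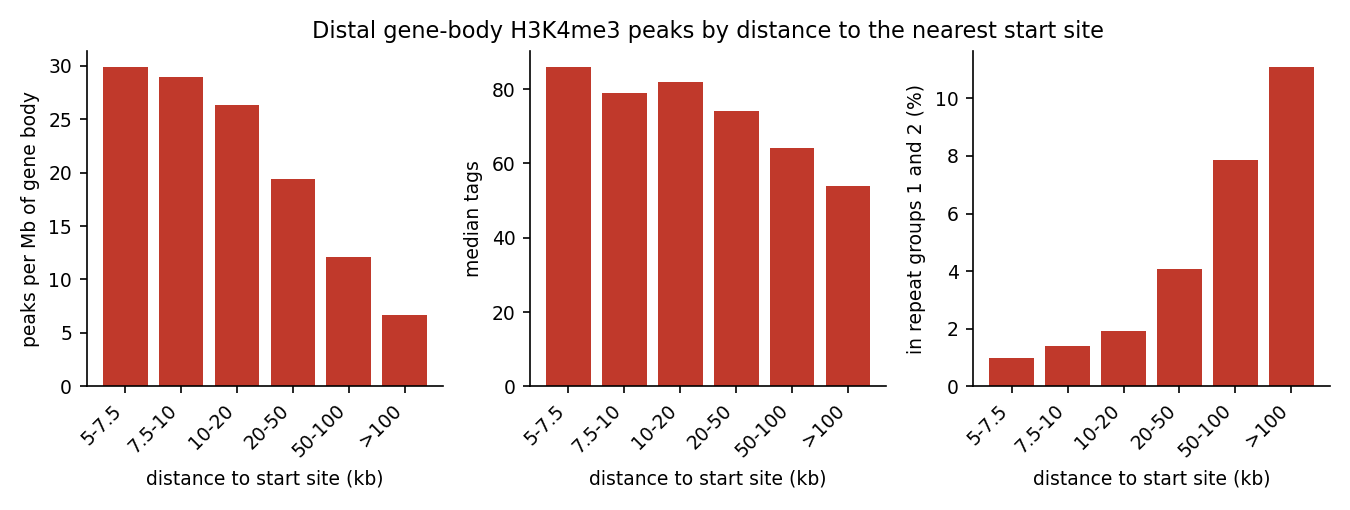
Distal gene-body peaks by distance of the midpoint to the nearest start site (x axis, kb), as peaks per Mb of gene-body sequence in the bin, median tags per peak, and the share in repeat groups 1 and 2. Density falls from 29.9 to 6.68 per Mb and median tags from 86 to 54, while the repeat share rises from 0.978% to 11.1%.

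Values just inside and just outside the limits of the definition were as follows. The 3 peaks nearest inside the distance limit, in Shroom3, Zfp46 and Fndc3b at 5002, 5003 and 5007 bp, held 48, 340 and 31 tags. The 3 nearest outside it, in Zfyve27, Bsn and Ric8b at 5000, 4999 and 4998 bp, held 22, 165 and 28 tags. At the length limit, the longest peaks kept were in Ctif and Sfxn5, both of 4998 bp, and in Ppp2r5c, of 4997 bp, with 628, 520 and 441 tags. The shortest left out were in Ror2, Atf1 and Ephb2, of 5005, 5011 and 5017 bp, with 538, 447 and 580 tags, and in all 175 peaks in gene bodies far from start sites were left out for their length.

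A group of the peaks lay near starts that another annotation lists. RefSeq placed a transcript start within 1000 bp of 444 peaks (3.06%) and within 5000 bp of 1375 (9.47%), but a start of a curated RefSeq transcript was within 1000 bp of only 32 (0.22%). The 444 peaks held a median of 116 tags (102 to 126), against 77 (76 to 79) for the others, and 13.5% (10.6% to 17%) against 7.67% (7.24% to 8.12%) were CpG-island-like. The start belonged to the host gene itself for 232 of the 444 and to an mRNA for 244. Of the curated starts, that of Zfp469 was within 1000 bp of a peak of 423 tags at chr8:122228584-122231623, inside the very long model Gm20388. Internal starts of Ethe1, Ppfibp2, Dgka and Trpm3 were within 1000 bp of peaks of 380, 296, 276 and 263 tags in their own genes.

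The 10 peaks with the highest score were broad for this class, from 1750 to 2974 bp, and held 263 to 558 tags. The highest, in Prrt4 at chr6:29169417-29172118, lay on a coding exon with 534 tags, a score of 1092.49 and a fold enrichment of 6.79, and it overlapped an ASH2L peak of 44 tags. Next were Gm17655 (chr5:110056715-110059083, 431 tags), Arid1b (chr17:5188969-5191322, 439 tags), Fam13c (chr10:70519303-70522105, 500 tags) and Cacna1a (chr8:84501108-84502857, 313 tags), all intronic. Arid1b encodes a subunit of the BAF chromatin remodeller and Cacna1a the pore-forming subunit of a voltage-gated calcium channel. The Arid1b and Cacna1a peaks were 78035 and 45112 bp from the nearest start site. The Atrnl1 peak was the richest in tags of the 10, with 558, 57024 bp from a start site. Of the remaining 4, in Zbtb7c, Nrg2, Acnat1 and Klhl31, that in Nrg2, a neuregulin growth factor gene, had a RefSeq transcript start 25 bp from its midpoint and also overlapped an ASH2L peak, of 42 tags. The Klhl31 peak lay on a coding exon, and its window had 70.6% GC and an observed to expected CpG ratio of 1.20. High scores therefore came from windows of very different composition, since the Cacna1a window had 52.7% GC and a ratio of 0.0728.

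The 10 peaks with the highest fold enrichment shared 0 peaks with the 10 of highest score. They were narrower, from 513 to 1236 bp, and held 54 to 133 tags. The highest of the whole H3K4me3 list was among them, in the noncoding part of an exon of Lars2 at chr9:123461789-123462418, with a fold enrichment of 30.22 and 117 tags. Lars2 encodes the mitochondrial leucyl-tRNA synthetase, and its peak also overlapped an ASH2L peak with a fold enrichment of 16.56 and 64 tags. Camk1d (chr2:5378720-5379751) followed with 22.43, 9030025P20Rik with 21.67 and Lepr, the leptin receptor gene, with 20.53. The 9030025P20Rik window was in a small group of near-identical windows, so that the position of its peak is uncertain. The peaks in Abca13 (chr11:9364669-9365904), Cnot6l (chr5:96119092-96120228) and Gm45861 (chr8:27560396-27561498), with 19.77, 19.01 and 18.75, all belonged to the second repeat group printed above. Zfp987, 4921539E11Rik and Clmn completed the set with 19.77, 19.57 and 18.42.

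Summit windows were GC-rich in relation to the gene bodies around them and poor in CpG in relation to start sites. Their median GC was 52.7%, with quartiles of 48.3% and 56.7%, while all 3312106 tiles of the same length cut from the same gene-body sequence had a median of 42.3%. Intergenic peaks had the same median of 52.7%, and start-site peaks had 62.7%. The median observed to expected CpG ratio was 0.282 (0.279 to 0.286), against 0.156 in the tiles, 0.311 in intergenic peaks and 0.678 at start sites. CpG-island-like windows were found in 1140 peaks (7.85%, 7.42% to 8.30%), in 8.86% (8.44% to 9.31%) of intergenic peaks, in 57.6% (56.9% to 58.4%) of start-site peaks and in 0.492% of the tiles. With 55% GC and a ratio of 0.65 as the limits, the shares were 4.05% (3.74% to 4.38%) in gene bodies and 4.08% (3.79% to 4.39%) in intergenic sequence. The 1140 peaks held a median of 111 tags (103 to 118) against 76 (75 to 78) for the rest, and had a median fold enrichment of 7.22 against 6.25. Of these 1140, 37.2% had their midpoint in an exon. Across 5 equal parts of the gene-body peaks by score, the CpG-island-like share was 4.2% in the lowest and 15% in the highest.

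Near-identical summit windows recurred in 826 of the peaks (5.69%), which fell into 69 groups linked by alignments of at least 120 bp with at least 80% identity. The largest had 241 peaks and the second 176, both spread over all 19 chromosomes, and only 3 others had 50 or more. The same windows were commoner outside genes: 819 intergenic peaks (4.92%) matched the first group and 709 (4.26%) the second, against 1.66% and 1.21% of the gene-body peaks, while 24 and 16 start-site peaks matched. Members of both groups had median windows that were wholly soft-masked, with GC of 63.7% and 61.2%. The family of repeat was not named, since no repeat annotation was used here. Fold enrichment was high in both, with medians of 9.88 (9.50 to 10.64) and 10.3 (9.50 to 11.02) against 6.23 (6.16 to 6.30) for the 13698 peaks in no group, but the number of tags was low, with medians of 47 (44 to 54) and 61.5 (50 to 65) against 79 (78 to 81). Peaks of both groups were also shorter, with median lengths of 783 and 891.5 bp against 1220 bp. Per 1000 bp of peak, the medians were similar, at 64.2 and 65.9 against 63.5 tags. Of the 86 gene-body peaks with a fold enrichment of at least 15, 46 (53.5%) were in these 2 groups. Tags in near-identical copies can be assigned to the wrong copy, so that the position of any 1 of the 826 grouped peaks is uncertain. The Cmss1/Filip1l and 9030025P20Rik windows printed above were in small groups, numbered 56 and 57 by size. Groups 3, 4 and 5, of 53, 53 and 50 peaks, had lower median fold enrichments of 8.28, 5.41 and 6.84 and lower GC of 42.8%, 50.7% and 51.7%.

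**Figure D4:**
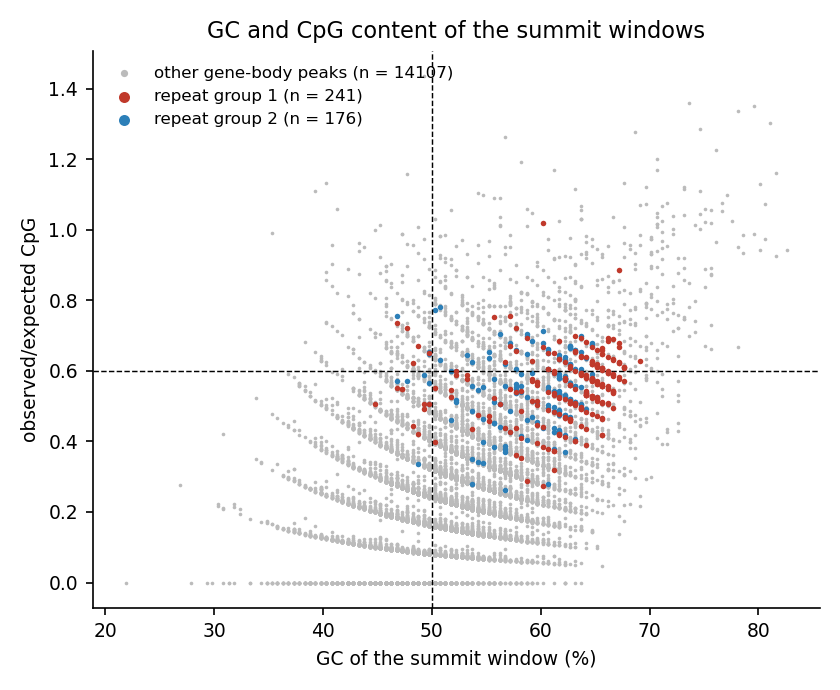
GC content (x axis) and observed to expected CpG ratio (y axis) of the summit windows of the 14524 distal gene-body peaks, with repeat groups 1 (241 peaks) and 2 (176 peaks) in colour and dashed lines at 50% and 0.6. Both repeat groups lie at high GC, with medians of 63.7% and 61.2%, and straddle the line at 0.6, and 1140 peaks in all are at or above both lines.

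Short motifs were searched in the windows on both strands, and 4020 peaks (27.7%) had at least 1 of the 12 searched. The pluripotency-related motifs were the octamer ATGCAAAT, bound by OCT4, with 2.02% of gene-body peaks (1.80% to 2.26%), and TCAAGGTCA, bound by ESRRB, with 1.02% (0.868% to 1.20%). The tiles held them in 1.55% and 0.454%, intergenic peaks in 2.22% and 0.938%, and start-site peaks in 0.932% and 0.272%. The KLF motif GGGTGTGG was in 4.57% (4.24% to 4.92%) of gene-body peaks, 3.67% of intergenic and 3.15% of start-site peaks and 1.23% of tiles. The SOX core CATTGT was in 10.4% of gene-body peaks and 12.2% of tiles, the only motif of the 12 less frequent in the peaks than in the tiles. The AP-1 motif TGACTCA was in 4.19% of the peaks and 3.26% of tiles, the STAT motif TTCCNGGAA in 0.785% and 0.497%, and the E-box CACGTG in 3.69% and 2.19%, with 5.08% at start sites. Other motifs were also rarer in these peaks than at start sites: the GC box GGGGCGGGG, bound by SP and KLF factors, was in 2.16% of gene-body and 11.7% of start-site peaks, the NRF1 motif GCGCATGCG in 0.337% and 1.68%, the CRE TGACGTCA in 0.207% and 1.41%, and the CTCF core AGGGGGCGC in 0.489% and 1.55%. Tiles held these 4 in 0.309%, 0.0266%, 0.114% and 0.0299%. No match was corrected for GC content, which differs between the windows and the tiles.

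The YY1 motif AAGATGGCG had another distribution. It was in 165 gene-body windows (1.14%), in 2.66% of intergenic windows, in 1.44% of start-site windows and in 0.155% of tiles. Of the 165, 110 were in the first repeat group, where 45.6% of windows held it, none was in the second, and outside both groups it was in 55 of 14107 windows (0.39%). The printed Immp2l, Fam135a, 4932414N04Rik and Acnat1 windows hold it, the first 3 as its reverse complement. Windows with the motif had a median of 44 tags, against 79 without it.

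ASH2L was rarely listed at these peaks. An ASH2L peak overlapped 87 of 14524 (0.599%, 0.486% to 0.738%), against 0.427% (0.338% to 0.538%) of intergenic peaks, 8.15% (7.74% to 8.57%) of start-site peaks and 3.03% (2.90% to 3.17%) of all 59927 listed H3K4me3 peaks. The share was 0.262% (0.191% to 0.359%) when only ASH2L peaks at or above their median fold enrichment counted. Seen from the other list, 87 of the 2452 ASH2L peaks on these chromosomes (3.55%) overlapped a distal gene-body peak. The 87 H3K4me3 peaks held a median of 192 tags (134 to 214) against 78 (77 to 79) without ASH2L, but the median fold enrichments, of 6.65 (6.02 to 7.63) and 6.34 (6.28 to 6.40), had overlapping intervals. The peaks with ASH2L were also longer, with a median of 1776 bp against 1198 bp. Per 1000 bp of peak, the medians were 95.9 and 63.4 tags. Of the 87, 35.6% (26.4% to 46.1%) were CpG-island-like and 37.9% (28.5% to 48.4%) lay in exons, against 7.68% and 12.6% of the rest. In the same 5 parts by score, 0.103% (0.0351% to 0.303%) of the lowest and 1.48% (1.10% to 1.99%) of the highest had ASH2L. The strongest ASH2L peak was in an intron shared by Cmss1 and Filip1l, with 99 tags and a fold enrichment of 24.19. It lay under an H3K4me3 peak of 209 tags at chr16:57390480-57392143, whose summit window was in a small group of near-identical windows. The position of that H3K4me3 peak is therefore uncertain, as for the other grouped peaks. Lars2 followed, and then Fbxw4 (chr19:45649803-45650331), whose H3K4me3 peak had 25 tags and whose ASH2L peak had 34 tags. Camk1d and Parva were next, with ASH2L fold enrichments of 9.18 and 7.12. An intronic peak in Fam110b, at a region that the study targeted with guide RNA, was also among the 87, with 35 H3K4me3 tags at a fold enrichment of 5.70 and 22 ASH2L tags at 4.50. The study describes its target regions as lacking H3K4me3 beforehand. The score of this listed peak, 75.49, was under the lower quartile of the gene-body peaks, 82.96. Without a control library, sequence that gathers tags with either antibody would appear in both lists, and this was not tested.

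Host genes of the peaks numbered 5618, which is 41.6% of the 13508 protein-coding genes with any body sequence more than 5000 bp from every start site. Of these hosts, 2677 (47.7%) had 1 peak, 2145 had 2 to 4, 796 had 5 or more and 185 had 10 or more. The share of genes with a peak rose with the length of that sequence, from 15.5% (14.5% to 16.5%) of 5200 genes with under 10 kb to 88.4% (85.8% to 90.6%) of 698 genes with 200 kb or more. Density went the other way, from 40.9 to 12.4 peaks per Mb.

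Genes with H3K4me3 at a start site held more of the peaks. The host had a listed peak within 1000 bp of a start site for 13548 distal peaks (93.3%, 92.9% to 93.7%). Such a peak was listed for 70.7% of all protein-coding genes, and for 10551 of the 13508 with eligible sequence. Since shares of peaks and of genes are not on 1 scale, the comparison was made by sequence. Marked gene bodies made up 603.5 of the 669.7 Mb, so the density was 22.4 peaks per Mb there and 14.7 per Mb in the others, a ratio of 1.52 (exact binomial interval 1.43 to 1.63). The share of genes with a distal peak was higher with a marked start in each length class, as 18.3% against 8.82% under 10 kb, 51.8% against 26.9% from 10 to 50 kb, 74.5% against 49.7% from 50 to 100 kb, 79.4% against 63.2% from 100 to 200 kb and 89.3% against 76.1% above. The 95% intervals did not overlap in any of these classes, although in the last they nearly met, at 86.7% to 91.4% against 62.1% to 86.1%. Repeat groups 1 and 2 had the opposite relation, with 0.567 peaks per Mb in bodies with a marked start and 1.13 per Mb in the others, a ratio of 0.5, whereas all other peaks had a ratio of 1.61. Peaks in hosts without a marked start had a median of 72 tags (66 to 78) against 79 (77 to 80), and 11.7% (9.81% to 13.8%) against 7.57% (7.14% to 8.03%) were CpG-island-like.

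**Figure D5:**
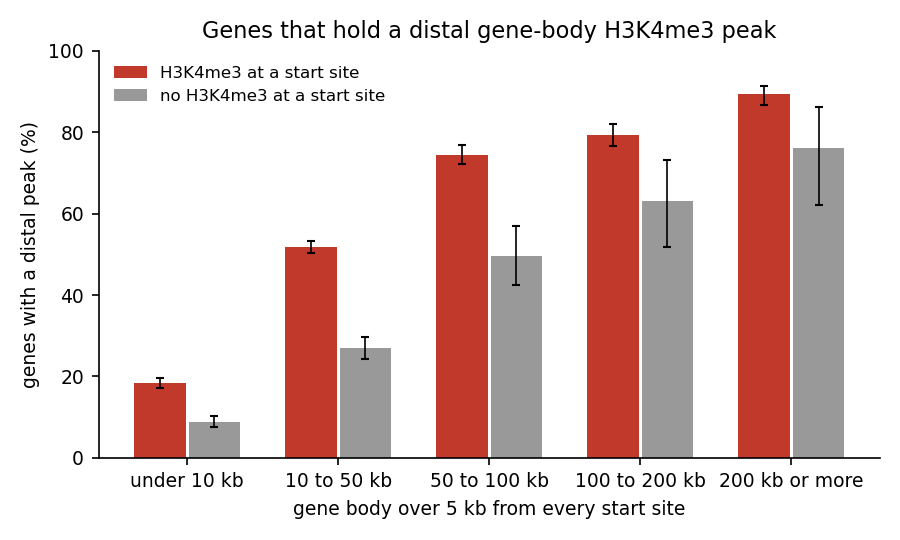
Share of protein-coding genes with at least 1 distal gene-body peak (y axis, with 95% Wilson intervals) by the length of gene body more than 5 kb from every start site (x axis), for genes with and without an H3K4me3 peak within 1000 bp of a start site. Genes with a marked start have the higher share in every class, from 18.3% against 8.82% under 10 kb to 89.3% against 76.1% at 200 kb or more.

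The hosts with most peaks were long gene models, some of them only in GENCODE. Gm20388, a model of 4434.9 kb on chromosome 8, had 165 peaks and spans many other genes. Gse1 is among them, and its peaks are counted for both genes. Fgfr2, a fibroblast growth factor receptor gene, had 60 in a GENCODE body of 2960.9 kb. Within the RefSeq body of Fgfr2, of 104.4 kb, there were 5. Gm37240, of 1391.1 kb, had 27. The other 7 had most of their peaks in the RefSeq body too. Camta1, a transcription activator gene, had 42 peaks, with 36 in the RefSeq body. Magi1, a scaffold of cell junctions, had 31, Gse1 30 and Ptprg, a receptor tyrosine phosphatase gene, 30. Pde4d, a cAMP phosphodiesterase gene, had 27, and Arid1b and Tenm3, a teneurin adhesion gene, had 26 each. Among these, Gse1 had the highest median tags, 146, with a range of 57 to 428, while Camta1 had 56.5, from 26 to 344.

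Density picked out other hosts. Among genes with at least 5 peaks, Adap1 had 23.0 per 100 kb of eligible sequence, Kcnj10, an inwardly rectifying potassium channel gene of glia, 19.7, Prkar2a, a regulatory subunit gene of protein kinase A, 18.9 and Enpp3 17.4. Rab6b had 10 peaks in 59.91 kb, or 16.7 per 100 kb, with 40 to 226 tags and a median fold enrichment of 4.03. Timp2, Tbc1d2, Dsp (the desmosomal plaque gene desmoplakin), Plxdc1 and Rhpn2 had 15.3 to 16.2. In all 10, RefSeq had every one of the peaks in its own body of the gene. By chromosome, density ran from 14.8 per Mb on chromosome 14 to 29.1 per Mb on chromosome 11, with median tags of 69 and 88.5.

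Gene lists of pathways relevant to these cells were set beside the 41.6% of all genes with eligible sequence that had a peak, at 21.8 per Mb counted per gene, and beside all genes of the length class that holds the list's median eligible length. Of the naive pluripotency and self-renewal genes, 7 of 22 with such sequence (31.8%) had a peak, 22 peaks in all at 37.8 per Mb. Their median eligible length was 9.07 kb, in a class where 15.5% of all genes had a peak, at 40.9 per Mb. Of the 7, only Sall4 and Prdm14, with 1 peak each, were themselves in that class, while Tcf7l1, Lifr, Esrrb and Nr5a2 had 71.85 to 125.3 kb of eligible sequence. Tcf7l1, a Wnt effector that restrains self-renewal, had 9, of 75 to 547 tags, the highest-scoring at chr6:72675665-72679981 with 547 tags. Esrrb, an orphan nuclear receptor of the naive network, had 7, of 34 to 448 tags. Lifr, the LIF receptor gene, had 2, of 35 and 203 tags. Klf5 had 1, with 202 tags, which overlapped an ASH2L peak. Sall4, Prdm14 and Nr5a2 had 1 each, of 123, 22 and 25 tags.

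Of the genes for H3K4 methylation and demethylation, 8 of 20 (40%) had a peak, at 27 per Mb. Of DNA methylation and TET genes 6 of 13 (46.2%) did, at 36.1 per Mb, and of Polycomb genes 7 of 20 (35%), at 33.9 per Mb. The median eligible lengths of these 3 lists were 19.1, 22.8 and 15.1 kb, in a class where 46.6% of all genes had a peak, at 33.4 per Mb. Kmt2a, which encodes MLL1, had 2 peaks, of 43 and 71 tags, and Kmt2c, which encodes MLL3, had 3, of 24 to 152 tags. Kdm2b, a demethylase that binds CpG islands, had 5, of 51 to 170 tags. Dpy30, a further core subunit of the MLL/SET1 complexes, had 1 of 130 tags with a score of 56.34, close to the cutoff. Dnmt3a, a de novo DNA methyltransferase gene, had 5, the highest-scoring with 672 tags over chr12:3870566-3875070, and Tet2 and Tet3, which encode 5-methylcytosine dioxygenases, had 3 and 1. Of the Polycomb genes, Jarid2 and Cbx7 had 4 each, and Phc2 had a peak of 305 tags. Chromatin remodellers and coactivators had peaks in 19 of 32 (59.4%), at 35.1 per Mb, with a median eligible length of 63.1 kb, in a class where 71.6% of all genes had a peak, at 29.6 per Mb. Besides Arid1b, with 26 peaks, Chd7 had 11, of 34 to 156 tags, and Med13l had 8.

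Signalling genes of the LIF, BMP, Nodal, FGF and Wnt pathways had peaks in 22 of 36 (61.1%), at 36.4 per Mb, with a median eligible length of 39.8 kb, in the class where 46.6% of all genes had one, at 33.4 per Mb. Fgfr2, with the long GENCODE body described above, supplied 60 of the list's 135 peaks and 2040.7 kb of its 3.71 Mb, so that the density rests largely on that model. The density of Fgfr2 itself, 2.94 per 100 kb, was below that of the list, which it therefore lowers. Tcf7l2 and Lef1, both TCF/LEF effectors of Wnt signalling, had 11 and 10 peaks, of 24 to 154 and 33 to 243 tags. Lrp6, a Wnt co-receptor gene, and Sos1, an exchange factor gene of the FGF-Ras pathway, had 5 each. Smad3 and Smad9, transducers of Nodal/activin and BMP signals, had 4 and 3. The highest-scoring single peaks of Acvr1b and Axin2, of 234 and 146 tags, were the only ones in those genes.

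A list of very long genes, mostly of neuronal adhesion and synapses but also holding the transcription factor gene Sox5 and the splicing factor genes Rbfox1 and Rbfox3, had peaks in 37 of 40 (92.5%), close to the 88.4% (85.8% to 90.6%) of all genes with 200 kb or more of eligible sequence. Their density was 5.17 per Mb, against 12.4 per Mb over all genes of that class. Their median eligible length was 1067.7 kb, and density over all genes fell from class to class with length, so that this class is not matched to the list in length. Dlg2, a synaptic scaffold gene of 1972.6 kb, had 8 peaks, the highest-scoring with 249 tags, and Lrp1b, of 2058.4 kb, had 4. Tenm3 had 26, and Sox5, which is no adhesion or synapse gene, 18. Cntn5 held a peak with a fold enrichment of 15.59 and 96 tags. The list of gut, liver, muscle and immune genes, named for tissues other than stem cells, had peaks in 19 of 30 (63.3%) at 29 per Mb, with a median eligible length of 71.3 kb, in a class where 71.6% of all genes had one, at 29.6 per Mb. Of the 30, 20 had H3K4me3 at a start site, against 10551 of all 13508 genes with eligible sequence. Ebf1 and Pax5, B-cell transcription factor genes, had 19 and 7 peaks, of 25 to 340 and 68 to 422 tags. Skap1 had 12, of 31 to 510 tags, Ryr1 8 and Bcl11b 6, the last with a peak of 397 tags 87156 bp from a start site. Ttn, the titin gene of muscle, had 5, of 44 to 595 tags. The lists were described by their counts alone, and none was tested against the others.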

How the data were processed

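H3K4me3 and HA-ASH2L were profiled by CUT&RUN in E14 cells. Per the study's methods and the deposited file headers, the authors mapped reads to mm10 with Bowtie2, pooled the duplicates and ran MACS 1.4.3 with no control library. The deposited tag counts are whole numbers of tags per peak. The deposited p-value score is −log10 p of the authors' caller, multiplied by 10, and the deposited fold enrichment is a ratio to its local background, with no normalization between the lists. Tag sizes of 142 bp (H3K4me3) and 151 bp (ASH2L) exceed the fragment limit in the methods, so it is not settled which fragments were counted.

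Peaks were placed by midpoint on GENCODE vM21 and RefSeq (GRCm38.p6). An ASH2L overlap was at least 1 bp. Windows of 100 bp on either side of the summit were read from the genome and grouped with blastn 2.17.0 (E of 1e-20). No test was run. Python 3.11.15 with pandas 2.3.3, pysam 0.24.0 and samtools 1.23.1 was used, and interval arithmetic and grouping were tested on simulated data. Peaks were named by rank of score, fold enrichment and ASH2L fold enrichment, by nearness to the limits, and by the highest score in each host of 8 gene lists. The peaks, lists and rules were chosen with earlier results of these data known, and the repeat groups, the tiles, the motifs within groups, and the fold enrichment cut of 15 after seeing the values.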

Additional observations from a re-analysis of the deposited data

How the results depend on the processing

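Each of 9 results was recomputed under the alternatives, which gave 99 values. Of these, 53 stayed within 1.5 times the count or inside the main value's 95% interval, and 46 moved as given below. A reversal was defined for the density ratio only, as a value below 1, and none of its values was. With peaks at or above the median fold enrichment, 7057 peaks remained, with 86.3% in introns, a median fold enrichment of 7.98, 92.8% in hosts with a marked start, a median GC of 53.2%, 10.1% CpG-island-like and a density ratio of 1.41. With a score of at least 100, 9639 peaks remained, with 86% in introns, a median fold enrichment of 7.11, 106 tags, ASH2L at 0.778%, GC of 53.2% and 9.45% CpG-island-like. Beyond 2500 bp, introns held 85.4%, fold enrichment was 6.23, marked hosts 92.6% and CpG-island-like windows 8.38%. Beyond 10000 bp, introns held 89.3%, fold enrichment was 6.46, tags 76, marked hosts 93.7% and GC 52.2%. With start sites of protein-coding transcripts only, introns held 83.7%, tags were 82, marked hosts 94%, GC 53.2%, CpG-island-like windows 8.86% and the density ratio 1.63. With the whole peak inside the body and beyond the distance, introns held 88.7% and tags were 75. Under 2000 bp of length, fold enrichment was 6.49, tags 64, ASH2L 0.46%, GC 52.2% and CpG-island-like windows 7.31%. ASH2L fell to 0.262% with ASH2L peaks at or above their median fold enrichment. A start-site window of 500 bp gave 92.6% in marked hosts. GC was 50.7% with 250 bp on either side of the summit and 48.7% over the whole peak, and CpG-island-like windows were 4.05% at 55% GC and a ratio of 0.65. In alternatives chosen after seeing the data, RefSeq gene bodies gave 92.6% in marked hosts, and leaving out windows at least 50% soft-masked gave a fold enrichment of 6.23, 81 tags, 93.8% in marked hosts and a density ratio of 1.65. The causes were not tested, beyond the construction of each alternative.

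No paired analysis was possible because the duplicates were merged into 1 list before deposition, and leaving out a duplicate was not possible for the same reason. Depth limits the list, in which a peak under the cutoff is missing, and a missing peak does not show that the mark is absent.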
